A study of Mus musculus with 10 samples.

Results

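Integrins and the adaptor proteins of focal adhesions were followed as a set of 39 genes, 13 integrin subunits and 26 adaptors, of the 78317 genes in the count table. The genes were taken by name and all 39 names were found. For a repeated name the entry with most summed counts was taken, and the rule used no other measured value. The list itself was chosen with earlier results of these data known. RNA came from wildtype mouse embryonic fibroblasts (MEFs) made immortal by T antigen, which blocks p53, and the cells had been kept at 10% CO2 and 37 °C in complete media. The first group was held at 2% CO2 for 24 h (hypocapnia) and the other stayed at 10% CO2 for the same time, with 5 libraries each. Batch 1 held replicates 1 to 3 of both levels, batch 2 held replicates 4 and 5, and the labels do not say what a batch was. The labels name 1 immortalized line and do not call the replicates separate cultures, so every p-value here rests on the spread between libraries, which may be technical.

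Integrins are receptors made of an alpha and a beta chain that grip the extracellular matrix from the cell surface. Inside the cell the beta chain is bound by talin and kindlin, which recruit vinculin, alpha-actinin, filamin, the kinase ILK with its partners PINCH and parvin, and scaffolds such as paxillin, and these join the receptor to actin and to signalling kinases. In fibroblasts such adhesions carry the tension of contractile actin bundles to the matrix, and several of the genes, vinculin among them, are textbook targets of the serum response factor.

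Total counts ran from 178676 to 12354538 at 2% CO2 and from 892318 to 10607076 at 10% CO2, and 3 libraries held under 1000000 counts (2% CO2 replicates 2 and 3 and 10% CO2 replicate 5). Levels are given as CPM, counts per 1000000 of the TMM-scaled library size, so that each count of 2% CO2 replicate 2, the library with fewest, adds 5.25 CPM. Of 14 fibroblast markers, 11 could be tested, and Col1a1, the chain of type I collagen, stood at 2015 ± 833 CPM with 2% CO2 against 4307 ± 1252 CPM with 10% (SD, n = 5 each). Lum, Dcn and Pdgfra, defining markers of many fibroblasts, averaged 0, 3.08 and 1.96 CPM with 2% CO2 and 0.0872, 0.489 and 1.20 CPM with 10%. Over the 5 lists of markers of other cell types apart from smooth muscle, the summed level of a list was at most 158 CPM in any 2% CO2 library and at most 166 CPM in any 10% CO2 library.

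Of the 39 genes 36 had enough counts to be tested, all 26 adaptors and 10 integrin subunits, and 0 of the 36 passed the count filter through the libraries of a single CO2 level. At 2% CO2, 15 of the 36 were lower and 0 higher (adjusted p under 0.05 by the edgeR quasi-likelihood test with batch in the model, here "called"). That is 41.7% lower, where 6.73% of all 13198 genes tested were called lower and 5.30% called higher. By DESeq2 18 and by limma-voom 16 were lower and again 0 higher, where DESeq2 called 937 of all 13198 genes lower and limma-voom 838. At an unadjusted p under 0.05 edgeR gave 24 lower and 1 higher, Itga3, where 13.5% of all genes tested were lower and 12.7% higher at that p. With no batch term in the edgeR model 5 were lower (Itga5, Fermt2, Parva, Vcl and Fblim1) and 0 higher. Over all 13198 genes that fit called 226 lower and 125 higher. Most of the differences were small: the median log2 fold change of the 36 was -0.40 against 0.00 for all genes tested, and 33 of the 36 lay below 0. In bulk RNA, fewer cells that carry a transcript and less of it per cell cannot be told apart.

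Integrin subunits and adaptors were set side by side. Of the 10 tested integrin subunits 3 were called lower, 0 higher and 7 not called, with a median log2 fold change of -0.36 and a range from -1.27 for Itga11 to 0.30 for Itga3. Of the 26 adaptors 12 were called lower, 0 higher and 14 not called, with a median of -0.40 and a range from -0.98 for Fblim1 to 0.02 for Parvb. The integrin median depended on which low genes were kept. With only genes at 10 CPM in at least 5 libraries, the medians were -0.16 for integrin subunits and -0.39 for adaptors. Without the 3 shallowest libraries they were -0.65 and -0.47, with Itga4 and Itga8 then among the integrin subunits. Both passed the filter of that fit through 10% CO2 libraries alone. A low fold change was thus favoured by the filter, and that integrin median cannot be set against the adaptor median. The difference between the integrin and adaptor lists was not tested. Without 2% CO2 replicate 3, 4 of these 10 integrin subunits were called lower, Itga1 being added.

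**Figure D1:**
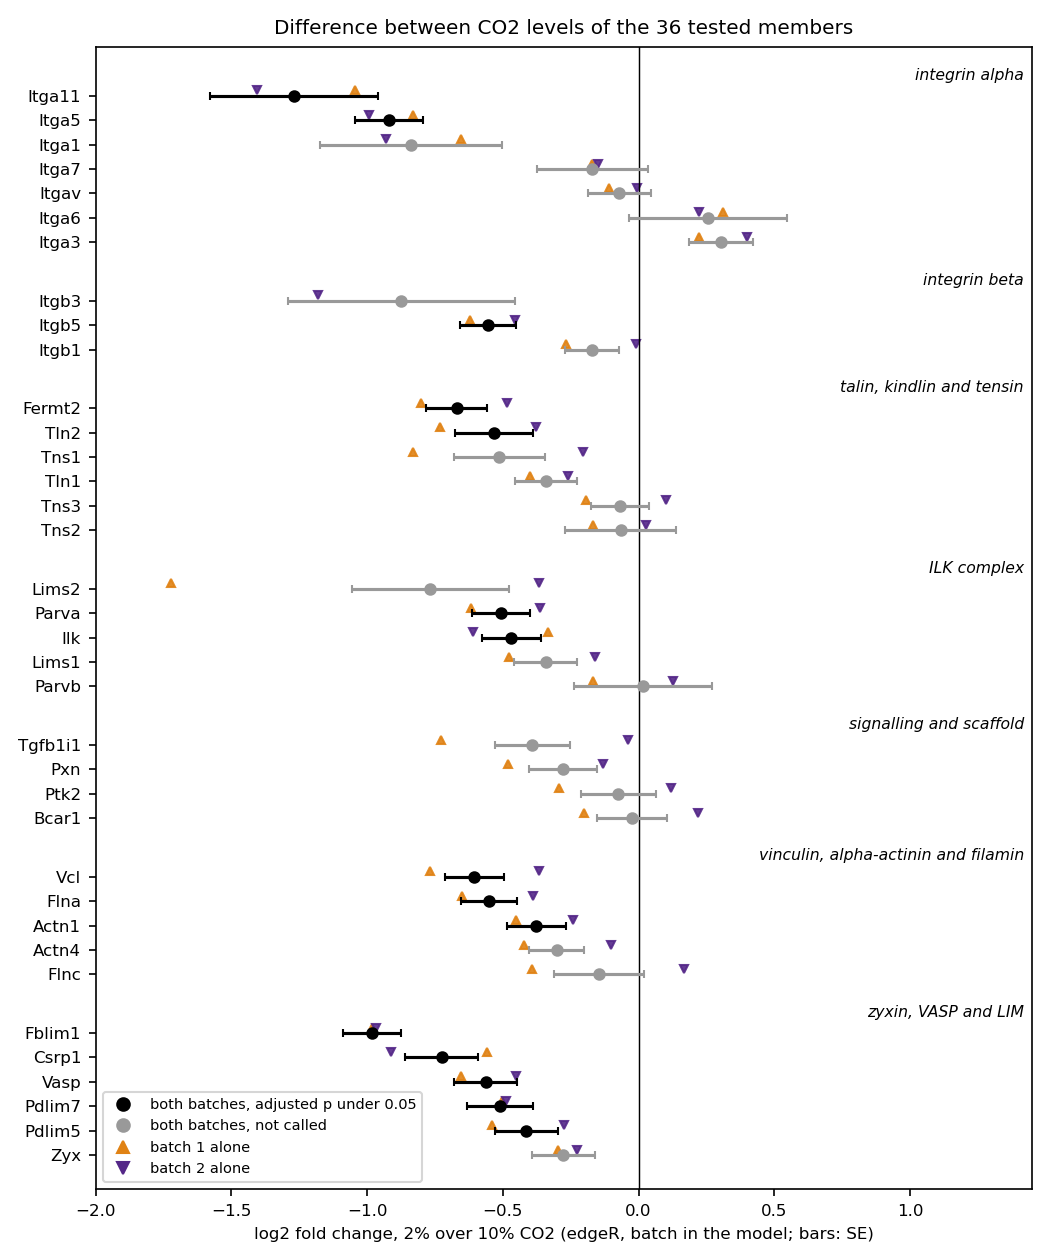
Log2 fold change, 2% over 10% CO2, of the 36 tested genes, grouped by role (horizontal axis; points with SE bars from the edgeR fit over both batches, black where called, grey where not, and triangles for each batch alone). The 15 black points all lie left of 0, from -1.27 for Itga11 to -0.38 for Actn1, and Itga3, Itga6 and Parvb are the points right of 0.

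Promoters are shown for 3 of the genes that were called lower, because 2 of them hold the CArG box, the site of the serum response factor, and the other is the adaptor gene with the greatest fall. They are RefSeq windows of mouse build GRCm38.p6, a build other than that of the counts, from 250 bases before to 50 bases after a transcript start, and 30 of the 39 genes had at least 1 such window. Vcl lies at chr14:20929148-20929447 on the plus strand, Fermt2 at chr14:45530016-45530315 on the minus strand and Fblim1 at chr4:141606003-141606302 on the minus strand, where the last is 1 of 2 starts listed for the gene. Capitals mark matches to the CArG box, to the TEAD motif (CATTCC or its reverse complement GGAATG) and to the AP-1 motif (TGAGTCA or its reverse complement TGACTCA), searched on both strands.
Vcl: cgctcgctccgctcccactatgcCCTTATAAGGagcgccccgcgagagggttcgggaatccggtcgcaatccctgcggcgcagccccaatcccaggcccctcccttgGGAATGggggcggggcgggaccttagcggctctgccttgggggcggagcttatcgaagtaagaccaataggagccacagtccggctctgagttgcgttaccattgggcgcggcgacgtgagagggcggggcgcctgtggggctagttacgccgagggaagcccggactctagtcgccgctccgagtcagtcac
Fermt2: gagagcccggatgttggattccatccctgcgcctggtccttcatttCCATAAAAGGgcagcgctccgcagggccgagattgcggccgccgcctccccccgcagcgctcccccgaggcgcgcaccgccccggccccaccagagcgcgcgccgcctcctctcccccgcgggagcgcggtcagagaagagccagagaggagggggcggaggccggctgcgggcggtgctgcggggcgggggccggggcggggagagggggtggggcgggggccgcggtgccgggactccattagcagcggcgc
Fblim1: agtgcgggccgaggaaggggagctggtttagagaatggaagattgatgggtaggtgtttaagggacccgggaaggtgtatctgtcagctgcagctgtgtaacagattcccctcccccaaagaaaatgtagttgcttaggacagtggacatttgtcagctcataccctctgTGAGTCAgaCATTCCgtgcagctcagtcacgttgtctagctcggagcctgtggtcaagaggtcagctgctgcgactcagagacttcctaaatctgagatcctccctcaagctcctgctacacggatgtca

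In Vcl the CArG box starts at base -227 and a TEAD match at -143, counted from the transcript start. The CArG box of Fermt2 starts at -204. In Fblim1 an AP-1 match starts at -80 and a TEAD match at -71, and no match overlaps another in these 3 windows. Of the 30 genes with a window 13 were called lower. A CArG box stood in 2 of the 30, Vcl and Fermt2, both called lower, and in 1.81% of all 27025 genes with a window. The TEAD motif stood in 6 of the 30 (Itgb1, Vcl, Actn4, Flna, Flnc and Fblim1), 3 of them called lower, and in 16.6% of all genes. AP-1 stood in 2 (Zyx and Fblim1), 1 of them called lower, and in 5.95%. Whether a motif goes with a call was not tested. These are matches of letters, and binding at them was not measured here.

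Of the alpha subunits Itga5 and Itga11 fell. Itga5, the alpha chain of the classical fibronectin receptor, had 61.2, 73.5, 79.5, 65.9 and 58.2 CPM at 2% CO2, against 146, 114, 105, 135 and 107 CPM at 10% CO2 (replicates 1 to 5 in that order, here and below). Every 2% CO2 library lay below every 10% CO2 library, and the log2 fold change was -0.92 ± 0.12 (SE; edgeR adjusted p = 1.22e-04), with -0.83 in batch 1 and -0.99 in batch 2. It was called in each batch alone and in all 10 fits that left out a library. Itga11, a collagen receptor chain of fibroblasts, had 5.60, 26.3, 9.46, 3.0 and 8.13 CPM at 2% CO2, against 14.3, 18.3, 15.8, 13.9 and 18 CPM at 10% CO2. Its ranges overlapped through 2% CO2 replicate 2, whose value rests on 5 counts, while the other 2% CO2 libraries lay below all of 10% CO2. The log2 fold change was -1.27 ± 0.31 (SE; edgeR adjusted p = 0.0166), which did not pass once 2% CO2 replicate 1 (edgeR adjusted p = 0.0860) or 10% CO2 replicate 4 (0.111) was removed. Itga11 was not called in batch 1 alone (edgeR adjusted p = 0.0848) or in batch 2 alone (0.177).

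Itga4, a chain that binds fibronectin and VCAM-1, was below the count filter and is described by its counts. It had 2, 0, 0, 8 and 2 counts at 2% CO2, 12 in all, against 20, 27, 28, 22 and 1 counts at 10% CO2, 98 in all. The levels did not overlap in CPM (at most 0.800 at 2% CO2 and at least 1.20 at 10% CO2), but the 0 counts of 2% CO2 replicates 2 and 3 allow up to 15.8 and 5.68 CPM, counting error only. In the edgeR fit with no filter on low counts, over 31794 genes, its log2 fold change was -2.32 ± 0.46 (SE, edgeR adjusted p = 4.49e-05). That is the smallest adjusted p of the fits it entered, and it rests on the 12 counts at 2% CO2. Itga4 was not called in batch 1 alone or in batch 2 alone. It was called without the 3 shallowest libraries and in each fit without a single library that it entered. In each of these filtered fits Itga4 passed the filter through 10% CO2 libraries alone. Neither its calls nor its missed calls there are used, and no value of Itga4 from those fits is given. Itga1, a collagen receptor chain, was not called at -0.84 ± 0.33 (SE; edgeR adjusted p = 0.112), and was called without 2% CO2 replicate 3, which held 4 counts of it (edgeR adjusted p = 0.0372).

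Other alpha subunits did not pass. Itgav, the chain of vitronectin receptors, had 174, 163, 219.5, 212 and 165 CPM at 2% CO2, against 219.7, 197, 192, 214 and 158 CPM at 10% CO2. The levels overlapped almost fully, and the estimate, -0.07 ± 0.12 on the log2 scale (SE; edgeR adjusted p = 0.774), became 0.00942 with scaling to the library total. The laminin receptor chains Itga3, Itga6 and Itga7 had log2 fold changes of 0.30 ± 0.12, 0.26 ± 0.29 and -0.17 ± 0.21 (SE), with edgeR adjusted p of 0.101, 0.653 and 0.669. In both batches every 2% CO2 library lay above every 10% CO2 library for Itga3, at 56.7 ± 5.02 CPM with 2% CO2 against 45.4 ± 7.71 CPM with 10% (SD, n = 5 each). Itga2 and Itga8 had 20 and 63 counts over all libraries and were too low to test.

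Of the beta subunits, Itgb5 was called. Itgb5, which pairs with the alpha v chain, had 77.4, 91.9, 88.0, 130.2 and 142 CPM at 2% CO2, against 116, 132, 137, 179 and 204 CPM at 10% CO2. Within each batch every 2% CO2 library lay below every 10% CO2 library, but batch 2 stood higher than batch 1, and the ranges over all libraries overlapped. The log2 fold change was -0.55 ± 0.10 (SE; edgeR adjusted p = 0.00185). Itgb1, the beta chain shared by most of these receptors, had 422, 467, 501, 553 and 485 CPM at 2% CO2, against 544, 599, 529, 543 and 515 CPM at 10% CO2. The ranges overlapped, the log2 fold change was -0.17 ± 0.10 (SE; edgeR adjusted p = 0.300), and it was -0.27 in batch 1 and -0.01 in batch 2. Itgb3, another alpha v partner, was low, with 2.00, 5.25, 0, 1.97 and 0.789 CPM at 2% CO2, against 1.47, 1.81, 2.27, 3.49 and 1.20 CPM at 10% CO2. Its estimate of -0.87 ± 0.42 (SE; edgeR adjusted p = 0.195) came to 0.0201 without 10% CO2 replicate 4, which held 36 of its 120 counts.

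Ratios of counts within a library need no scaling. The log2 ratio of Itga5 to Itgb1 was -2.78, -2.67, -2.66, -3.07 and -3.06 at 2% CO2, against -1.90, -2.40, -2.34, -2.01 and -2.27 at 10% CO2, so the levels did not overlap and the mean difference was -0.67. For Itga5 over Itgav the ratio was -1.46 ± 0.20 at 2% CO2 and -0.70 ± 0.13 at 10% CO2 (mean ± SD of log2 ratios, n = 5 each), again with no overlap. Both ratios were chosen after the values were seen, so no test is given.

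**Figure D2:**
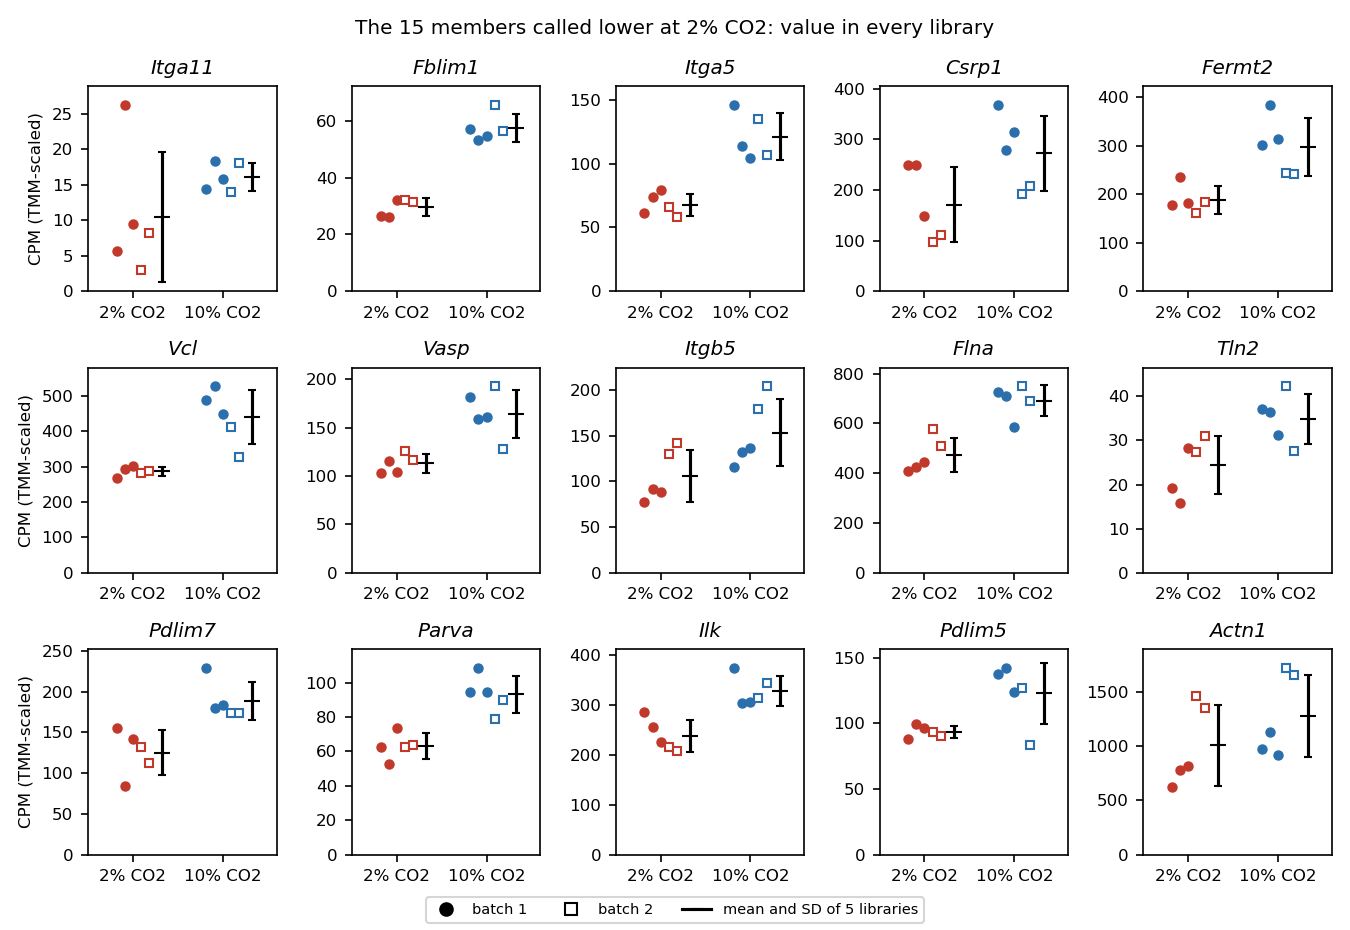
CPM of the 15 genes called lower at 2% CO2 in every library (vertical axis from 0; 2% CO2 left in red, 10% CO2 right in blue, filled circles batch 1, open squares batch 2, black bars mean and SD of 5 libraries). Fblim1 lies between 26.3 and 32.2 CPM at 2% CO2 and between 53.3 and 65.8 CPM at 10% CO2, while Itga11, Csrp1, Itgb5, Tln2, Pdlim5 and Actn1 overlap.

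Talin, kindlin and tensin bind the integrin tails. Fermt2, the kindlin of fibroblasts, which activates integrins together with talin, had 178, 236, 182, 160.4 and 183 CPM at 2% CO2, against 302, 385, 315, 244 and 241 CPM at 10% CO2. No 2% CO2 library reached the lowest 10% CO2 library, and the log2 fold change was -0.67 ± 0.11 (SE; edgeR adjusted p = 8.12e-04). Tln2 had 19.2, 15.8, 28.4, 27.5 and 31.1 CPM at 2% CO2, against 37.1, 36.4, 31.3, 42.3 and 27.6 CPM at 10% CO2. These levels overlapped, and the log2 fold change was -0.53 ± 0.14 (SE; edgeR adjusted p = 0.0206). It did not pass when 2% CO2 replicate 1, 2% CO2 replicate 4 or 10% CO2 replicate 4 was left out (edgeR adjusted p = 0.101, 0.0660 and 0.163) and with scaling to the library total (0.0560). Tln1, the main talin of fibroblasts, did not pass at -0.34 ± 0.11 (SE; edgeR adjusted p = 0.0592), and passed with DESeq2 (adjusted p = 0.0455) and, by edgeR, without 10% CO2 replicates 3 or 5 (adjusted p = 0.0425 and 0.0178).

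The tensins, which couple integrin tails to actin, were not called. Tns1 came to -0.51 ± 0.17 (log2 fold change with SE; edgeR adjusted p = 0.0561), -0.83 in batch 1 and -0.21 in batch 2, and was called in batch 1 alone (edgeR adjusted p = 0.0182) and without 10% CO2 replicate 5 (0.00466). Tns2 and Tns3 lay at -0.07 ± 0.20 and -0.07 ± 0.11 (SE). Tns3 differed more between the batches than between the CO2 levels, with a batch 2 over batch 1 log2 fold change of -1.02.

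The ILK complex links beta tails to actin through ILK, PINCH (Lims1 and Lims2) and parvin (Parva and Parvb). Parva had 62.4, 52.5, 73.8, 62.9 and 64.0 CPM at 2% CO2, against 94.5, 109, 94.5, 78.9 and 90.0 CPM at 10% CO2. The levels did not overlap, and the log2 fold change was -0.51 ± 0.11 (SE; edgeR adjusted p = 0.00472). Ilk had 285, 255, 225, 215 and 208 CPM at 2% CO2, against 373, 303, 305, 314 and 343 CPM at 10% CO2. Those levels did not overlap either, and the log2 fold change was -0.47 ± 0.11 (SE; edgeR adjusted p = 0.00825), lost without the 3 shallowest libraries (edgeR adjusted p = 0.0862). In the GENCODE M21 annotation 89.7% of the exon bases of Ilk lie opposite exons of other genes, Taf10 and Rrp8, and the labels do not state that counting used strand, so reads of these genes may not be told apart. Lims1 did not pass at -0.34 ± 0.12 (SE; edgeR adjusted p = 0.0634), and it passed with DESeq2 (adjusted p = 0.0477) and, by edgeR, without 10% CO2 replicate 4 (adjusted p = 0.0498). Lims2 and Parvb, with 238 and 381 counts in all, had log2 fold changes of -0.77 ± 0.29 and 0.02 ± 0.25 (SE) and were not called.

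The signalling scaffolds gave no calls by edgeR over both batches. Ptk2, the focal adhesion kinase, was at 48.9 ± 11.7 CPM with 2% CO2 against 47.4 ± 5.13 CPM with 10% and Bcar1, the scaffold p130Cas, at 219 ± 31.8 CPM with 2% CO2 against 221 ± 47.6 CPM with 10% (SD, n = 5 each), with log2 fold changes of -0.07 ± 0.14 and -0.02 ± 0.13 (SE). Pxn (paxillin) had -0.28 ± 0.12 (SE; edgeR adjusted p = 0.163). Tgfb1i1 (Hic-5, a relative of paxillin) had -0.39 ± 0.14 (SE; edgeR adjusted p = 0.0722), -0.73 in batch 1 and -0.04 in batch 2, and was called in batch 1 alone (edgeR adjusted p = 0.0182) and without 10% CO2 replicate 5 (0.0254). None of these p-values shows that a scaffold stayed level: the log2 fold change of Ptk2 ranged from -0.15 to 0.11 over the fits that left out a library.

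Actin linkers were lower in part. Vcl, vinculin, which is recruited to talin under tension, had 268, 294, 301, 283 and 289 CPM at 2% CO2, against 489, 527, 448, 413 and 328 CPM at 10% CO2. The 2% CO2 libraries lay in a narrow band below all 10% CO2 libraries, and the log2 fold change was -0.61 ± 0.11 (SE; edgeR adjusted p = 0.00156). In GENCODE M21 25.5% of its exon bases lie opposite exons of Ap3m1. Flna, filamin A, which crosslinks actin and binds integrin tails, had 409, 425, 447, 578 and 508 CPM at 2% CO2, against 725, 709, 584, 748 and 689.8 CPM at 10% CO2. The highest 2% CO2 value, 578, lay under the lowest at 10% CO2, 584, and the log2 fold change was -0.55 ± 0.10 (SE; edgeR adjusted p = 0.00195).

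Actn1, alpha-actinin 1, a crosslinker of stress fibres, had 622, 777, 821, 1469.8 and 1350.4 CPM at 2% CO2, against 975, 1132, 919, 1724 and 1657 CPM at 10% CO2. Batch 2 stood well above batch 1 at both CO2 levels, and within each batch the levels did not overlap. The difference, -0.38 ± 0.11 on the log2 scale (SE; edgeR adjusted p = 0.0286), did not pass on removing 2% CO2 replicate 1 or 5, or 10% CO2 replicate 1, 2 or 4 (edgeR adjusted p = 0.0546 to 0.0792) and with scaling to the library total (0.108). Actn1 was not called in batch 1 alone (edgeR adjusted p = 0.0674) or in batch 2 alone (0.364). Actn4 did not pass by edgeR at -0.30 ± 0.10 (SE; adjusted p = 0.0616). It passed with DESeq2 (adjusted p = 0.0122), with limma-voom (0.0429) and, by edgeR, without 2% CO2 replicate 4 (adjusted p = 0.0389) or 10% CO2 replicate 5 (0.0199). Flnc, the filamin of muscle, had -0.14 ± 0.17 (SE; edgeR adjusted p = 0.649).

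LIM proteins and their partners gave 5 calls among 6 genes. Fblim1 (migfilin, which joins filamin to kindlin and integrins) had 26.4, 26.3, 32.2, 32.2 and 31.6 CPM at 2% CO2, against 57.1, 53.3, 54.7, 65.8 and 56.4 CPM at 10% CO2. The levels stood far apart in both batches, and the log2 fold change was -0.98 ± 0.11 (SE; edgeR adjusted p = 1.70e-05), -0.98 in batch 1 and -0.97 in batch 2. It was called in all 12 alternatives other than leaving out single libraries and in all 10 fits that left out a library. Csrp1, a LIM protein of actin bundles, had 249, 249, 149, 97.6 and 111 CPM at 2% CO2, against 369, 279, 315, 192 and 208 CPM at 10% CO2. Batch 2 lay lower than batch 1, so the ranges overlapped over all libraries but not within a batch, and the log2 fold change was -0.73 ± 0.13 (SE; edgeR adjusted p = 0.00188).

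Vasp, which speeds actin filament growth at adhesions, had 103, 116, 104, 126 and 116 CPM at 2% CO2, against 181, 159, 161, 193 and 128 CPM at 10% CO2. The highest 2% CO2 library (126) stood just under the lowest 10% CO2 library (128), and the log2 fold change was -0.56 ± 0.12 (SE; edgeR adjusted p = 0.00401). Pdlim7 had 155, 84.0, 142, 132 and 112 CPM at 2% CO2, against 229, 180.4, 184, 174 and 174 CPM at 10% CO2. The levels did not overlap, and the difference was -0.51 ± 0.12 on the log2 scale (SE; edgeR adjusted p = 0.00989). It was not called without the 3 shallowest libraries (edgeR adjusted p = 0.0632), in batch 1 alone (0.0871) or in batch 2 alone (0.0910). Pdlim5, like Pdlim7 a PDZ and LIM protein, had 88.0, 99.8, 96.5, 93.2 and 90.2 CPM at 2% CO2, against 138, 142, 124, 127 and 83.4 CPM at 10% CO2. It overlapped through the shallow 10% CO2 replicate 5, and the difference, -0.41 ± 0.12 on the log2 scale (SE; edgeR adjusted p = 0.0266), did not pass on removing 2% CO2 replicate 1, 2% CO2 replicate 3, 10% CO2 replicate 1 or 10% CO2 replicate 4 (edgeR adjusted p = 0.0816, 0.0639, 0.0582 and 0.169) and with scaling to the library total (0.0868). Zyx (zyxin), recruited to strained actin bundles, did not pass at -0.28 ± 0.12 (SE; edgeR adjusted p = 0.132), with 311 ± 51.7 CPM with 2% CO2 against 371 ± 18.8 CPM with 10% (SD, n = 5 each).

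**Figure D3:**
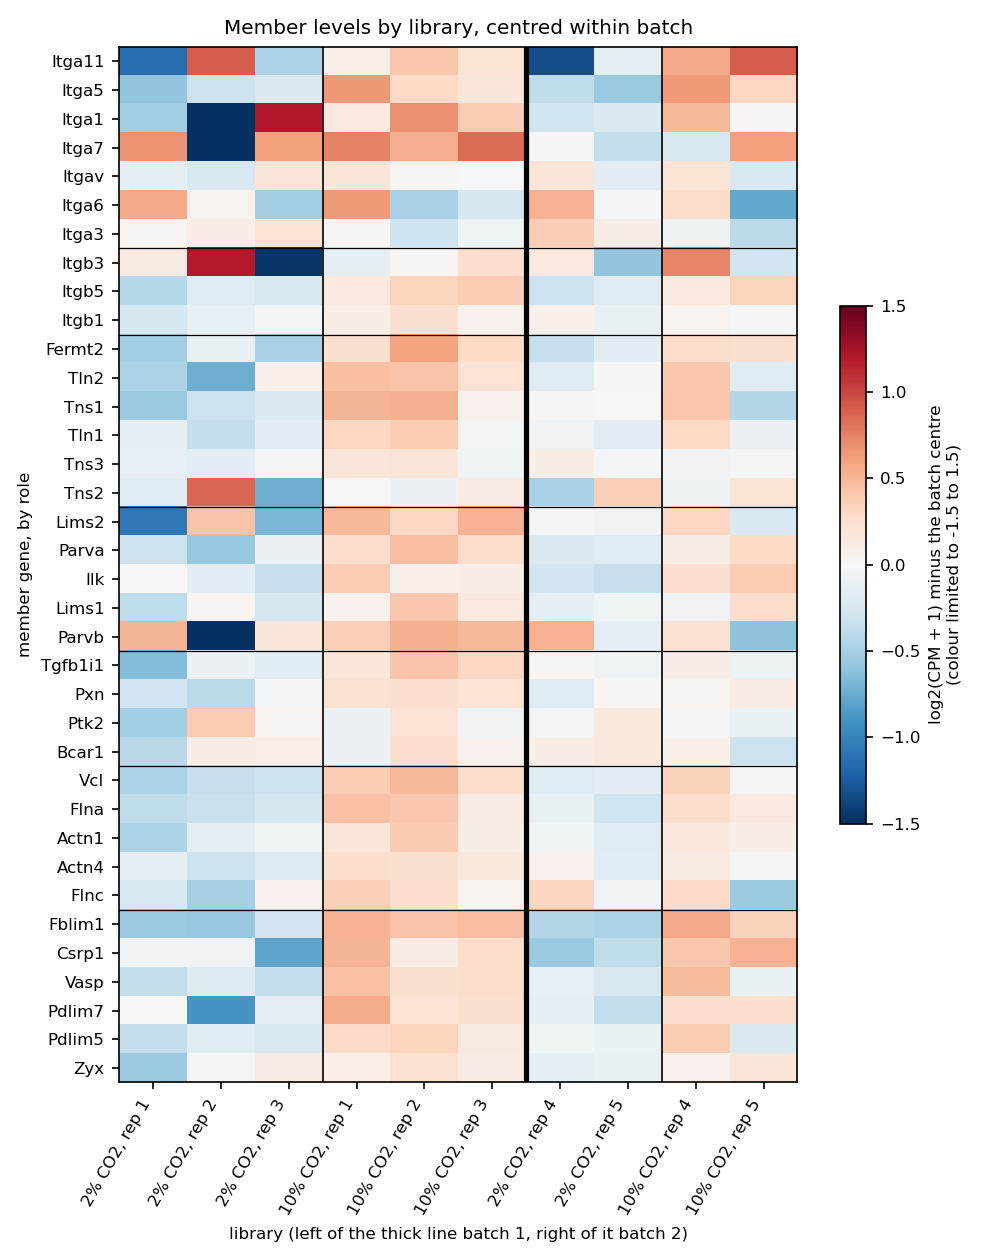
Log2(CPM + 1) of the 36 tested genes (rows, by role) in the 10 libraries (columns, 2% CO2 before 10% CO2 within each batch), minus the centre of its batch, which is the mean of the 2 group means. The rows of Fblim1, Vcl, Fermt2 and Itga5 are blue in all 5 libraries at 2% CO2 and the dark blue cell of Itga7 in 2% CO2 replicate 2 is a gene with 0 counts there.

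Over the set, 9 of the 36 tested genes (25.0%) had no overlap between the CO2 levels with 2% CO2 lower, and 0 with 2% CO2 higher, where the shares over all genes tested were 3.33% and 2.20%. These were Itga5, Fermt2, Ilk, Parva, Vcl, Flna, Vasp, Fblim1 and Pdlim7. With scaling to the library total, 12 were called lower and 0 higher and 30 lay below 0, while over all genes 1031 were called higher and 614 lower, where TMM scaling gave 700 and 888. Without the 3 shallowest libraries 15 of the 36 were lower and 0 higher, and 13 of the 15 calls remained, all but Ilk and Pdlim7. Over all 14244 genes tested in that fit 667 were lower and 570 higher.

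Within batch 1 (3 against 3 libraries) 12 genes were called lower and 0 higher, where 3.56% of all genes tested there were lower and 2.66% higher. Within batch 2 (2 against 2) 4 were lower and 0 higher, against 0.978% and 0.848% of all genes. The 4 were Itga5, Ilk, Fblim1 and Csrp1. Of the 15 genes called over both batches, Itga11, Actn1 and Pdlim7 were called in neither batch alone. The adaptors had a median log2 fold change of -0.49 in batch 1 and -0.25 in batch 2, and the integrin subunits one of -0.27 and -0.30. Itgb3, at -1.18 in batch 2, was not tested in batch 1, so the integrin medians are over different genes. By the edgeR test of the CO2 by batch interaction 0 of the 36 genes were called, as were 0% of all genes tested. At an unadjusted p under 0.05 that test gave 2 of the 36, Tgfb1i1 and Lims2, and 8.75% of all genes. Across the 35 genes tested in both batches, which share libraries within a batch and so are not independent, Pearson's r between batch 1 and batch 2 log2 fold changes was 0.648 and Spearman's rho 0.765, and r was 0.395 over the 12185 genes tested in both. Between the batches themselves 8 of the 36 genes differed (Itgb5, Pxn, Actn1 and Actn4 higher in batch 2, Fermt2, Tns1, Tns3 and Csrp1 lower), where 36.0% of all genes did.

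**Figure D4:**
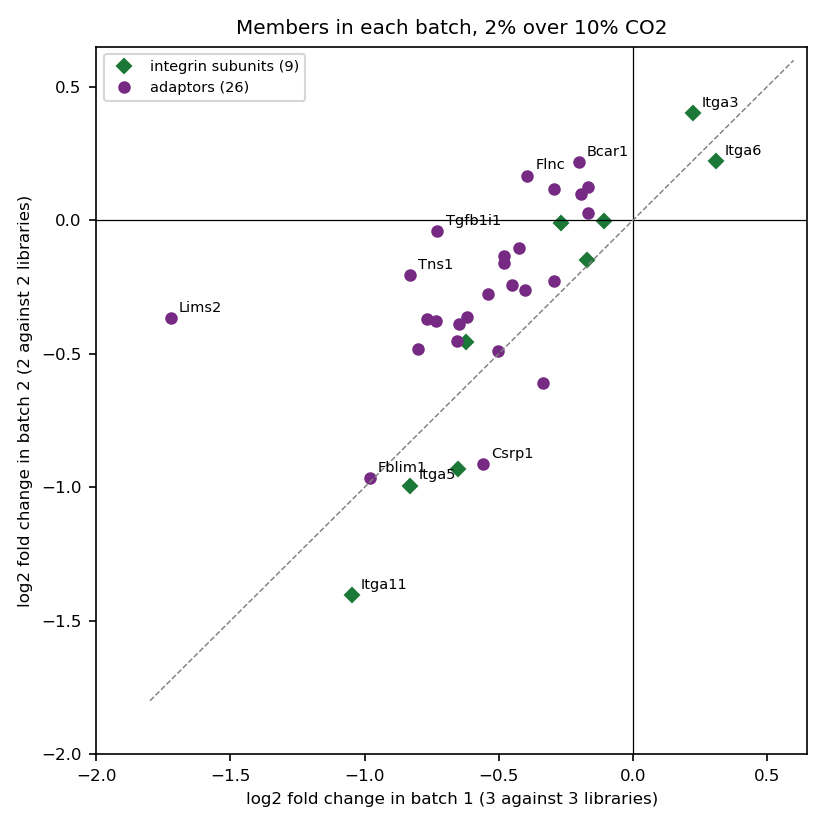
Log2 fold change, 2% over 10% CO2, in batch 2 (vertical) against batch 1 (horizontal) for the 35 genes tested in both, green diamonds for integrin subunits and purple circles for adaptors, with the line of equal values dashed. Lower left holds the 27 genes below 0 in both batches, Itga3 and Itga6 lie above 0 in both, and Tgfb1i1, Tns1 and Lims2 lie nearer 0 in batch 2 than in batch 1.

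Other genes of the pathway were taken from lists fixed by name. Of 14 further integrin subunits only Itgb8, which activates latent TGF-beta together with the alpha v chain, had enough counts, and it fell by 0.70 on the log2 scale (edgeR adjusted p = 0.0471). The leukocyte chains Itgad and Itgax had 0 counts. Of 70 further adhesion adaptors and regulators 56 were tested, of which 18 were lower, 2 higher and 36 not called, with a median log2 fold change of -0.23. That is 32.1% lower and 3.57% higher, where 6.73% and 5.30% of all genes tested were. Lpp, a relative of zyxin, was at 428 ± 132 CPM with 2% CO2 against 710.3 ± 102 CPM with 10%, Nedd9, a relative of p130Cas, at 12 ± 5.65 CPM with 2% CO2 against 28.9 ± 3.15 CPM with 10% and Nexn, an actin-binding protein, at 58.6 ± 23.6 CPM with 2% CO2 against 103 ± 21.3 CPM with 10% (SD, n = 5 each), with log2 fold changes of -0.75, -1.03 and -0.87. Wtip, a LIM protein, fell by 0.65. The genes that rose were Crip2 (0.77 ± 0.16) and Crkl, the adaptor that binds p130Cas and paxillin (0.48 ± 0.12, SE), both named after their values were seen.

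Integrin ligands were a further list. Of 26 tested 12 fell, 1 rose and 13 were not called, with a median log2 fold change of -0.48. Emilin1, an elastic fibre protein, was at 18.3 ± 4.90 CPM with 2% CO2 against 37.9 ± 6.21 CPM with 10% and Lama5, a laminin chain, at 31.9 ± 5.41 CPM with 2% CO2 against 56.7 ± 16.8 CPM with 10% (SD, n = 5 each), and Col1a1 and Col1a2 had log2 fold changes of -1.15 and -0.95. Fn1, fibronectin itself, was not called at -0.30 ± 0.11 (SE; edgeR adjusted p = 0.0856), and the ligand that rose was Lamb2, another laminin chain, at 0.49, named after its value was seen. Of 15 membrane partners 3 fell, 0 rose and 12 were not called: the syndecans Sdc3 (-0.88) and Sdc1 (-0.56) and the tetraspanin Cd151 (-0.46). Of 16 genes of integrin trafficking 3 rose, the retromer subunit Vps35 (0.39), Rab7 (0.36) and Rab21 (0.37), 1 fell, Rab11b (-0.43), and 12 were not called, with a median log2 fold change of 0.06. As shares called lower, ligands had 46.2%, membrane partners 20% and trafficking genes 6.25%, where all genes tested had 6.73%. Called higher were 3.85%, 0% and 18.75%, where all genes tested had 5.30%. The share of trafficking genes that fell was thus near that of all genes.

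**Figure D5:**
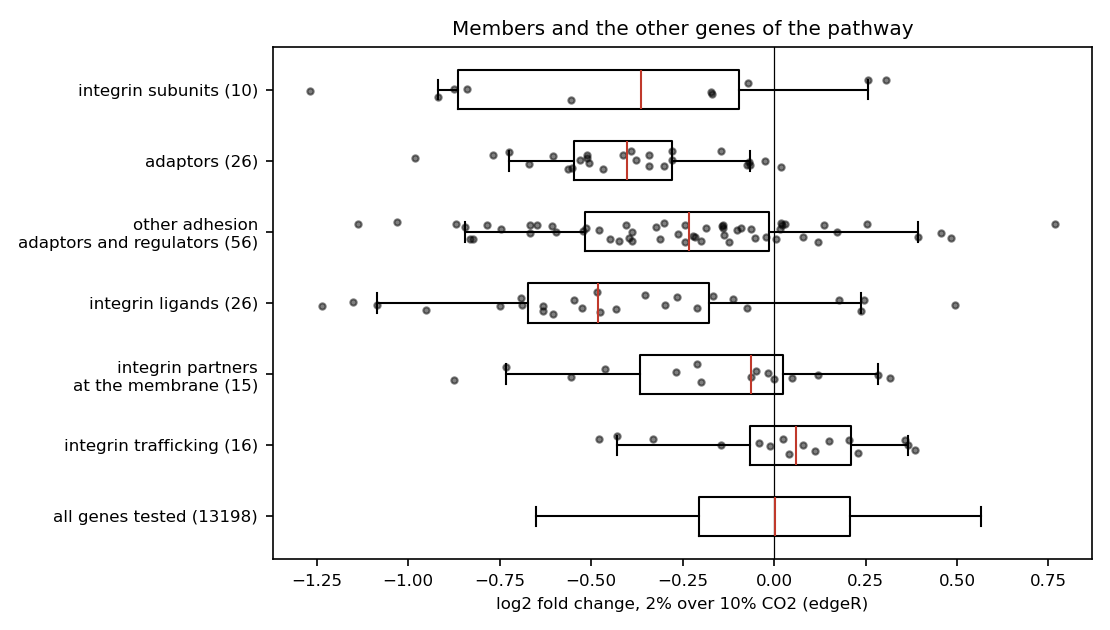
Log2 fold change, 2% over 10% CO2, of tested genes by list (points single genes, box the middle of the values with its median in red, whiskers the 5th to 95th percentile, number of genes in brackets). Medians are -0.36 for integrin subunits, -0.40 for adaptors, -0.23 for other adaptors and regulators, -0.48 for ligands, -0.06 for membrane partners, 0.06 for trafficking and 0.00 for all genes tested.

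Some markers of smooth muscle and of fibroblasts fell too. Of 8 smooth muscle markers 5 were tested and all 5 were lower at 2% CO2, with a median log2 fold change of -1.42, and the summed level of all 8 ran from 3705 to 4526 CPM at 2% CO2 and from 8376 to 9763 CPM at 10% CO2. Of the defining ones, Acta2 was at 2155 ± 321 CPM with 2% CO2 against 5708 ± 632 CPM with 10% (SD, n = 5 each), Myh11 was at 0 in all 2% CO2 libraries and averaged 0.856 CPM at 10% CO2, and Myocd averaged 0.0948 CPM at 2% CO2 and 0.637 CPM at 10% CO2. Of the 11 fibroblast markers tested 5 were lower, 0 higher and 6 not called, among these S100a4 at 0.82 ± 0.24 (log2 fold change with SE; edgeR adjusted p = 0.0541), and the summed level of all 14 ran from 5188 to 8570 CPM with 2% CO2 and from 9040 to 13936 CPM with 10% CO2. Col1a1 and Col1a2 stand both there and among the ligands, and together with Vim, which averaged 1784 CPM with 2% CO2 and 2372 CPM with 10%, they make up much of that sum. Of the other marker lists, the endothelial Kdr rose by 0.98 on the log2 scale (edgeR adjusted p = 0.0134) and the neural Nes had -0.43 (edgeR adjusted p = 0.0405), at 9.25 ± 3.35 CPM with 2% CO2 against 5.40 ± 1.38 CPM with 10% and 71.2 ± 13.5 CPM with 2% CO2 against 87.5 ± 12.8 CPM with 10% (SD, n = 5 each). The part of these markers in the differences of the adhesion genes was not tested.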

How the data were processed

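Libraries were made from mRNA by reverse transcription, second-strand synthesis, tagmentation and amplification, per the labels' protocols. The submitters' processing notes name the build GRCm39 and the tools featureCounts (Subread 2.1.1), STAR 2.7.11, MultiQC 1.32 and SAMtools 1.22.1. Their settings, the annotation and any use of strand are not stated. The authors deposited estimated counts, not normalized, of which 71.0% to 79.2% of the nonzero values per library are whole within 1e-06. The authors' second table holds CPM, which equals counts over the library total to within 4.78e-05 and was used only for that check. The 92 spike-in entries, all at 0, were left out.

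Counts were rounded and tested with edgeR 4.0.16 (R 4.3.3) across all genes: genes were kept by filterByExpr with CO2 level as the group (count of at least 10, sum of at least 15), libraries scaled by TMM, and CO2 tested beside batch by the robust quasi-likelihood F test, two-sided, Benjamini-Hochberg adjusted over all 13198 genes tested, threshold 0.05. Log2 fold changes are 2% over 10% CO2, their SE is the fold change over the square root of F, and printed CPM use TMM-scaled totals. Fractional counts, which can come from reads shared between genes, occurred for 25 of the 39 genes and in 5 or more libraries for Itgb5, Tns3, Ilk, Ptk2, Bcar1, Pdlim5 and Csrp1, whose values are less certain. CPM were not compared between genes, since how counts scale with transcript length is not given.

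Alternatives were DESeq2 1.42.0, limma-voom (limma 3.58.1), scaling by RLE or by library total, leaving the filter out or keeping genes at 10 CPM in at least 5 libraries, truncated counts, no batch term, each batch alone, the replicate number as a block, each library left out, and the 3 shallowest left out. The tests were tested on simulated data that had the same spread for every gene and no batch difference. That simulation cannot speak for the batch-adjusted fits used here. Members, lists, motifs and alternatives were chosen with earlier results of these data known. Full values are given for called genes and for Itga5, Itgav, Itgb1, Itgb3 and Itgb5, and from the other lists for up to 4 called genes with the smallest adjusted p.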

Additional observations from a re-analysis of the deposited data

Results flagged for a closer look

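Within the 5 libraries of a CO2 level, a value was looked at again when its gap to the nearest other value took up more than 0.71 of the range. This held in 4 of 72 groups (36 genes at 2 levels), and chance flags about 1 in 20. Itga1 was at 7.57 CPM in 2% CO2 replicate 3 (4 counts), against 0 to 1.89 CPM in the other 2% CO2 libraries. Itga11 was at 26.3 CPM in 2% CO2 replicate 2 (5 counts), against 3.0 to 9.46 CPM in the others. Itga7 was at 0 CPM in the same library, against 11.8 to 16.0 CPM, where 3 counts equal 15.8 CPM. Pdlim7 was at 229 CPM in 10% CO2 replicate 1, against 174 to 184 CPM in the other 10% CO2 libraries. The first 3 of these values come from the shallowest libraries of the series.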

How the results depend on the processing

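No member was called higher under any alternative run. The count of members called lower was 15 and lay between 12 and 18 except with no batch term (5), in batch 2 alone (4) and without 10% CO2 replicate 5 (20). It was 12 to 20 over fits that left out a library. Adaptors called lower numbered 4 with no batch term, 3 in batch 2 alone and 9 to 16 without single libraries. Integrin subunits called lower numbered 1 with no batch term, 1 in batch 2 alone, 5 without the 3 shallowest libraries and 2 to 5 without single libraries. Some of these counts hold Itga4, which in filtered fits passed the filter through 10% CO2 alone. Over the 36 genes alone 15 were lower without the 3 shallowest libraries and 11 to 19 without single libraries, and of the 10 integrin subunits 4 and 2 to 4. Over all genes 1588 were called, against 351 with no batch term, 763 in batch 1, 267 in batch 2 and 736 to 1724 without single libraries, the lowest without 10% CO2 replicate 4 and 1014 without 2% CO2 replicate 4. The cause was not tested, save that batches alone hold fewer samples.

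Log2 fold changes that changed sign were of genes not called. With library total scaling Itgav came to 0.00942, Tns2 to 0.00101 and Bcar1 to 0.0608. With limma-voom Parvb came to -0.0294. With no batch term Ptk2 came to 0.0299. In batch 1 alone Parvb came to -0.17. In batch 2 alone Tns2 came to 0.0268, Tns3 to 0.10, Ptk2 to 0.12, Bcar1 to 0.22 and Flnc to 0.17. Without the 3 shallowest libraries Itga7 came to 0.0261 and Parvb to -0.00653. Without single libraries the ranges were -0.15 to 0.11 for Ptk2, -0.13 to 0.11 for Bcar1, -0.33 to 0.10 for Tns2, -0.25 to 0.20 for Parvb and -1.20 to 0.0201 for Itgb3. Depth limits Itga2, Itga4, Itga8 and Itgb3 most.

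With the mean of each CO2 level taken off, the 2 libraries of a number correlated at 0.47, 0.09, 0.21, 0.64 and 0.17, values that still hold the batch difference. With the mean of each CO2 level within each batch taken off, they correlated at 0.17, 0.10, 0.04, 0.19 and 0.19. Neither set was all over 0.1, so the numbers were not taken to pair samples beyond their batch. With the replicate block in place of batch 17 members were lower, Tln1 and Tns1 joining the 15, and Bcar1 came to 0.00383. Over all 13198 genes that fit called 1078 lower and 849 higher.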
